A study of Apis mellifera with 25 samples.

Results

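In 55 of the 15314 honey bee genes in the deposited gene table, reads of paternal origin made up at least 60% of the reads assigned to a parent in each of 4 crosses. These 55 genes are called members here. They were chosen from their own parental read counts: the reads of all workers of a cross were added, positions where both parents had the same total in that cross were dropped, and a member needed at least 100 reads and a paternal share of at least 0.6 in every cross. Of the 15314 genes, 5333 had at least 1 listed position and 2010 had at least 100 reads in every cross, so that the members were 2.74% of the genes that could have been chosen. The mirror set, with a paternal share of at most 0.4 in every cross, held 23 genes (1.14%). Because the rule used the paternal share, the shares below are descriptions and carry no test.

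The samples were 25 adult workers of Apis mellifera, each sequenced as its own library of polyadenylated RNA from the eviscerated abdomen, which holds the fat body and the ovaries. Africanized and European bees had been crossed reciprocally to obtain these workers, which were kept queenless for about 18 days and were more than 18 days old as adults. Dissection placed 12 of them in the group with active ovaries and 13 in the group with inactive ovaries. Library titles begin with 875, 882, 888 or 894, read here as the cross, and each cross had 3 bees with active ovaries and 3 bees with inactive ovaries, except cross 882 with 4 inactive bees. The labels do not define these numbers and do not say which lineage gave the mother of each cross, so a share that goes with the parent's sex can be told apart from one that goes with lineage only as far as the 4 crosses include both directions.

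Honey bee drones are haploid and queens are diploid, so a worker carries a single version of each gene from its father and a single version from its mother. Most workers do not lay eggs while a queen is present, and in a colony without a queen some of them activate their ovaries and lay unfertilised eggs. A queen mates with many drones, and kinship theory of intragenomic conflict predicts that alleles from father and mother have different interests in worker reproduction. A difference between D and Q reads at a position where the parents differ in sequence is the usual measure of parent-specific expression. The allele tables give D and Q counts, and D is read here as the drone father and Q as the queen mother. The files and labels leave these letters undefined, so the word paternal depends on this reading throughout.

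Gene counts per bee added up to 11.5 to 34.7 M (M, 1e6 counts; median 27.6 M) in active bees and to 7.54 to 37.7 M (median 24.0 M) in inactive bees. An earlier analysis of the same files set apart inactive replicate 6 of cross 882 and inactive replicates 8 and 9 of cross 888 by their allele shares. Over the members, the median paternal share was 86.7% in replicate 6, 88.3% in replicate 8 and 84.5% in replicate 9, against 76.5% to 88.8% in the other inactive bees. Without these 3 bees 44 genes met the rule, and all 44 are members. The tissue could not be checked against markers, because none of the identifiers (0 of 15314) matched the reference gene table (12398 genes, assembly Amel_HAv3.1). For the same reason no member can be given a gene name or a function.

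The members differed widely in how far the paternal share went. The lowest of the 4 crosses was at least 90% in 9 members, between 70% and 90% in 17 and between 60% and 70% in 29, with a median of 69.2% over all 55. The 9 most paternal members also had the deepest data, with a median of 20352 reads summed over positions and bees, against 2322 in the middle class and 1860 in the lowest class. Their crosses lay close together, 0.669 to 4.69 percentage points apart. Over all members the median distance between the highest and lowest cross was 11.4 points and the largest was 37.3 points, and in 11 members it was over 20 points. The median member stood at 80% in cross 875, 82.0% in cross 882, 74.2% in cross 888 and 83.0% in cross 894. Cross 888 was the lowest cross of 19 members, against 15 for cross 875, 11 for cross 882 and 10 for cross 894.

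**Figure D1:**
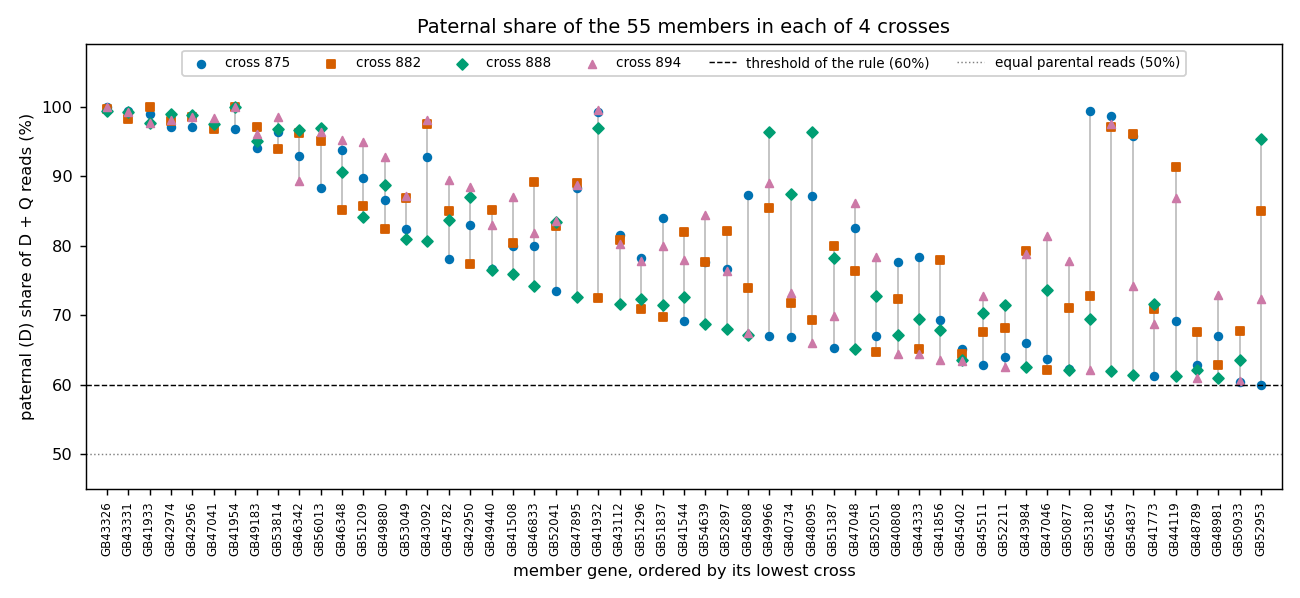
Paternal (D) share of the reads of each member in crosses 875, 882, 888 and 894, in percent, ordered by the lowest cross; a grey line joins the crosses of a gene. The 9 genes at the left stay above 90% in every cross, while several genes near the threshold reach over 90% in some crosses and about 60% in another.

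GB43331 lay on the unplaced scaffold GroupUn98 (positions 26579 to 29102). The members' sum of 868037 reads counts reads at positions shared by GB42956 and GB42974 for both genes. GB43331 had the most reads of all members and 34.2% of that sum. It had 85439 D and 540 Q reads in cross 875, 57178 D and 1001 Q reads in cross 882, 79126 D and 579 Q reads in cross 888, and 72637 D and 531 Q reads in cross 894. The paternal share was therefore 99.4%, 98.3%, 99.3% and 99.3% in these crosses. Among single bees it was 98.6%, 99.3% and 99.5% (lowest, median and highest) with active ovaries, against 98.0%, 99.1% and 99.5% with inactive ovaries. Every bee of both groups was thus above 95%, and the groups overlapped almost wholly. The excess was spread along the gene, with D above Q in 177 of its 178 pairs of a position and a cross.

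GB43326, which lies 2570 bases from GB43331 on the same scaffold, had the highest lowest-cross share of all members (99.3%). It had 1107 D and 1 Q reads in cross 875, 637 D and 2 Q reads in cross 882, 2971 D and 20 Q reads in cross 888, and 2663 D and 0 Q reads in cross 894. In both groups the median bee had no Q read and a share of 100%, and the lowest was 99.0% with active and 98.2% with inactive ovaries. GB41933, on the unplaced scaffold GroupUn179 (positions 19394 to 19816), came after GB43326 and GB43331 by its lowest cross, with 98.9%, 99.9%, 97.7% and 97.6% in crosses 875, 882, 888 and 894. At GB41954, on scaffold Group6.30 (positions 190702 to 190766), Q reads came almost wholly from cross 875 (4580 D and 152 Q reads). Cross 882 had 1909 D and 1 Q reads there, cross 888 had 3296 D and 0 Q reads, and cross 894 had 4721 D and 0 Q reads. GB43326 and GB41954 were among the 4 members with over 50% of their reads at positions that lacked any Q read in the cross, while 19 members had no such position.

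GB41932 lies 8333 bases from GB41933 on the same scaffold, and its cross 882 stood apart from the other crosses. It had 5113 D and 1935 Q reads in cross 882 (72.5%), against 11542 D and 90 Q reads in cross 875 (99.2%), 3521 D and 110 Q reads in cross 888 (97.0%) and 7172 D and 33 Q reads in cross 894 (99.5%). The 3 active bees of cross 882 had 72.2%, 71.3% and 73.5%, and its inactive bees had 75.2%, 73.1%, 41.7% and 75.1%. The value of 41.7% was that of inactive replicate 6, a bee set apart above, with 163 reads. The highest bee of cross 882 (75.2%) thus lay below the lowest bee of the other crosses (92.7%).

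GB45402, on scaffold Group6.37, had a single listed position (194531) and the same moderate share everywhere. It had 2178 D and 1164 Q reads in cross 875, 1502 D and 830 Q reads in cross 882, 1078 D and 619 Q reads in cross 888, and 1541 D and 891 Q reads in cross 894, which is 65.2%, 64.4%, 63.5% and 63.4%. Single bees lay at 61.1%, 63.3% and 67.3% (lowest, median and highest) with active ovaries and at 61.3%, 64.1% and 68.7% with inactive ovaries. This gene was singled out after its values were seen, as a member close to the threshold that varied little between bees.

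Single bees mostly had the direction of their cross. Of 1375 values of a member in a bee, 1310 rested on at least 10 reads; 1247 of these (95.2%) were above 50%, 56 were below, 7 were equal, and 364 were at least 95%. Paternal reads were above 50% in every bee with at least 10 reads in 32 members, among them all 9 members of the most paternal class. With the bees divided by ovary status, 43 members were at or above 60% in every cross among active bees, 43 among inactive bees, and 36 in both. Above 50% in every cross were 53 members among active bees and 53 among inactive bees. Some of these divided counts rest on few reads, because the minimum of 100 reads applied to the whole cross.

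**Figure D2:**
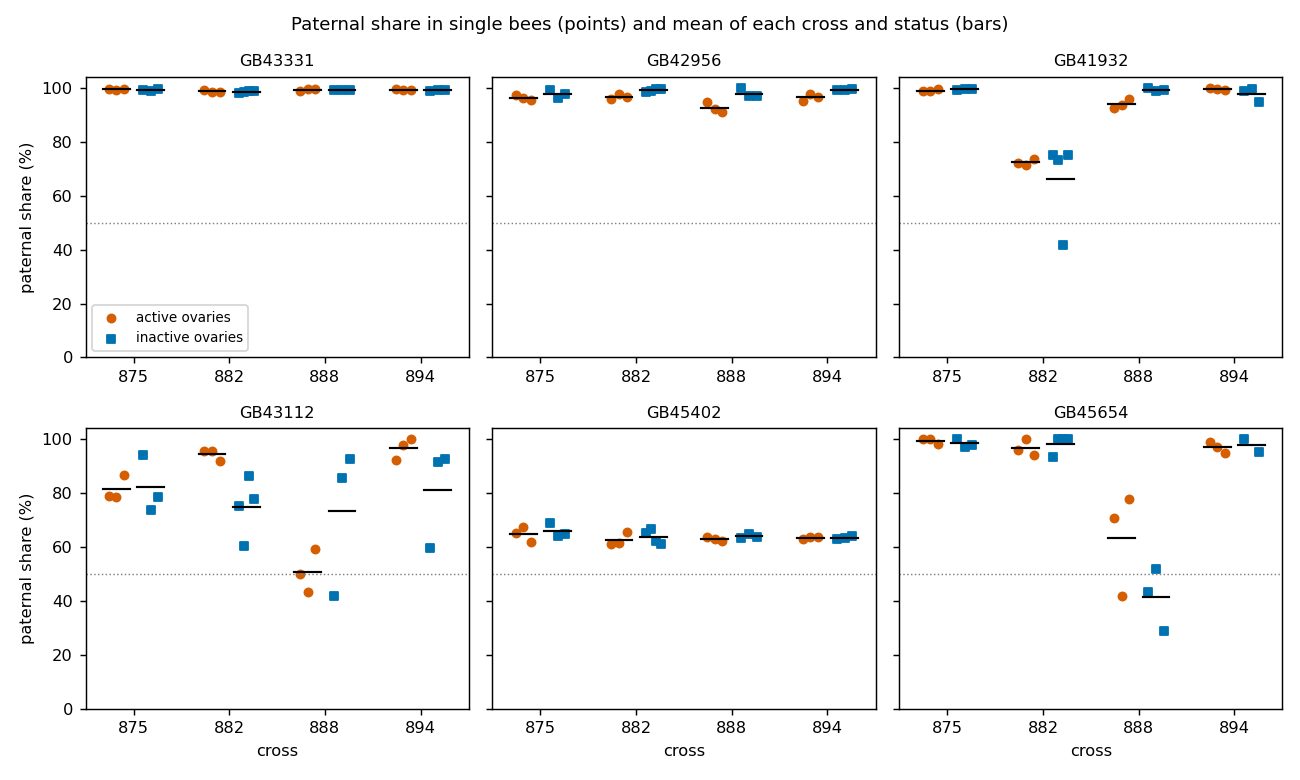
Paternal share (percent) of 6 members in single bees with at least 10 reads, with active (circles) and inactive ovaries (squares), by cross; the bar is the mean of a cross and status and the dotted line marks 50%. GB43331 stays above 97% in every bee, GB41932 drops in cross 882, GB45654 drops in cross 888 and GB43112 scatters widely.

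In some members the crosses did not rest on the same positions, so that the share of a cross depended on which positions it could use. GB45654, on scaffold Group5.20, had 2 positions. At position 426860 it had 215 D and 3 Q reads in cross 875, 198 D and 6 Q reads in cross 882 and 310 D and 8 Q reads in cross 894, but 8 D and 339 Q reads in cross 888. Cross 888 thus had the opposite direction at this position. At position 427159 the D and Q counts were equal in crosses 875, 882 and 894 (for instance 779 D and 779 Q reads in cross 875), which the rule dropped. Cross 888 had 886 D and 208 Q reads there. GB45654 met the rule in cross 888 through that position only.

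GB53180, on scaffold Group1.7, had the largest distance between crosses. In cross 875 its share rested on position 679608 alone, with 825 D and 5 Q reads, while cross 888 had 749 D and 749 Q reads and cross 894 had 555 D and 555 Q reads there. Position 679340 had 464 D and 465 Q reads in cross 894 and was kept there, while it was dropped in cross 875, where both parents had 837 reads. GB43112, the member with the highest mean level (6744 CPM, counts per 1e6 counts), had 2 positions on scaffold Group11.20. Position 596907 is listed in both allele tables, and in cross 888 it had 1059 D and 956 Q reads. Position 597387 is listed in the inactive table only, with 2530 D and 469 Q reads in cross 888. The 3 active bees of cross 888 therefore rested on the first position alone, with shares of 50%, 43.4% and 59.4%. GB53180 was singled out after its values were seen.

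The rule dropped positions with equal totals, which carried a median of 1.92% of a member's reads, against 22.1% in the other 1955 genes with enough reads and 0% in the mirror set. The members differed in this: the median was 0.0764% in the most paternal class, 0.996% in the middle class and 16.4% in the lowest class, and it was 66.0% of the reads of GB45654. The comparison is bound up with the rule, since a gene with many equal positions kept fewer others. With the equal positions put back, 41 genes met the rule, and all 41 are members. How reads were assigned at these positions is not given, so equal totals are not read here as equal expression. Just inside the threshold stood GB52953, with 60% (138 D and 92 Q reads) in cross 875, and GB50933, with 60.4% in cross 875. Just outside stood GB54206, with 59.8% in cross 875, and GB55575, with 59.6% in cross 894. All 4 of these genes were above 59% in every cross. At the minimum of 100 reads, GB41544 and GB56013 were just inside with 100 reads in their shallowest cross, and GB44588 with 97 and GB49883 with 92 were just outside.

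Within a gene, the paternal excess is the number of D reads beyond the Q reads. The 55 members had 2769 pairs of a kept position and a cross, and D was above Q in 2164 of them (78.2%). In 10 members D was above Q at every such pair. In the 38 members with at least 5 positions, the positions with the largest excess that together held 80% of it were counted. This choice favours deep positions with a high paternal share, so the contrast is a description. Positions with Q at or above D cannot be picked, so a lower share in the rest is largely built in. It was not found in every member: in GB41932 the picked positions were 92.1% paternal and the rest 94.9%. GB43984 and GB51296 likewise had the higher share in the rest, and the other members had the lower share there. The picked positions were at most 25% of the gene's positions in 14 members and lay within less than 300 bases in 14 members. They were at least 5 times as deep as the other positions in 24 members. The remaining positions of these 38 genes had a median paternal share of 61.6%. They were at least 60% paternal in 25 members, between 45% and 55% in 8, and under 50% in 2.

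GB47041, on scaffold Group3.15, had the second most reads of all members, and 4 positions within 28 bases carried its excess. Positions 354397, 354409, 354417 and 354424 together had 76735 D and 540 Q reads, and its other positions had 3675 D and 1399 Q reads (72.4%). At position 354409 there were 5232 D and 41 Q reads in cross 875, 4270 D and 43 Q reads in cross 882, 3902 D and 17 Q reads in cross 888, and 5835 D and 20 Q reads in cross 894. At the nearby position 354471 there were 41 D and 42 Q reads in cross 875, 42 D and 47 Q reads in cross 882, 22 D and 20 Q reads in cross 888, and 38 D and 30 Q reads in cross 894. The Q reads were thus alike at both positions, while the D reads were over 100 times as many at the first. Because a read that covers several of these neighbouring positions is counted at each, the summed reads overstate the number of separate reads.

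The same contrast appeared in other members. In GB51209 (scaffold Group6.1) the single position 115744 had 16942 D and 95 Q reads, against 2957 D and 2285 Q reads (56.4%) at its other positions, whose median was 92 Q reads. In GB41856 (scaffold Group8.9), the member with the most listed positions (128), 4 positions had 6409 D and 224 Q reads, and the other positions used in some cross had 7696 D and 6297 Q reads (55%). In GB49183 (scaffold Group3.14) 5 positions within 70 bases had 16554 D and 103 Q reads, against 2863 D and 832 Q reads (77.5%) elsewhere. Its Q counts were less alike, with a median of 21 at those positions and 9 at the rest. Of the 24 members whose excess positions were at least 5 times as deep as the rest, the median Q count at those positions was less than 2 times that of the rest in 10. In 7 members the excess positions were at least 50 times as deep as the rest. GB51209 and GB49183 and the counts of this paragraph were chosen after the values were seen, and what sets these deep positions apart was not tested.

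**Figure D3:**
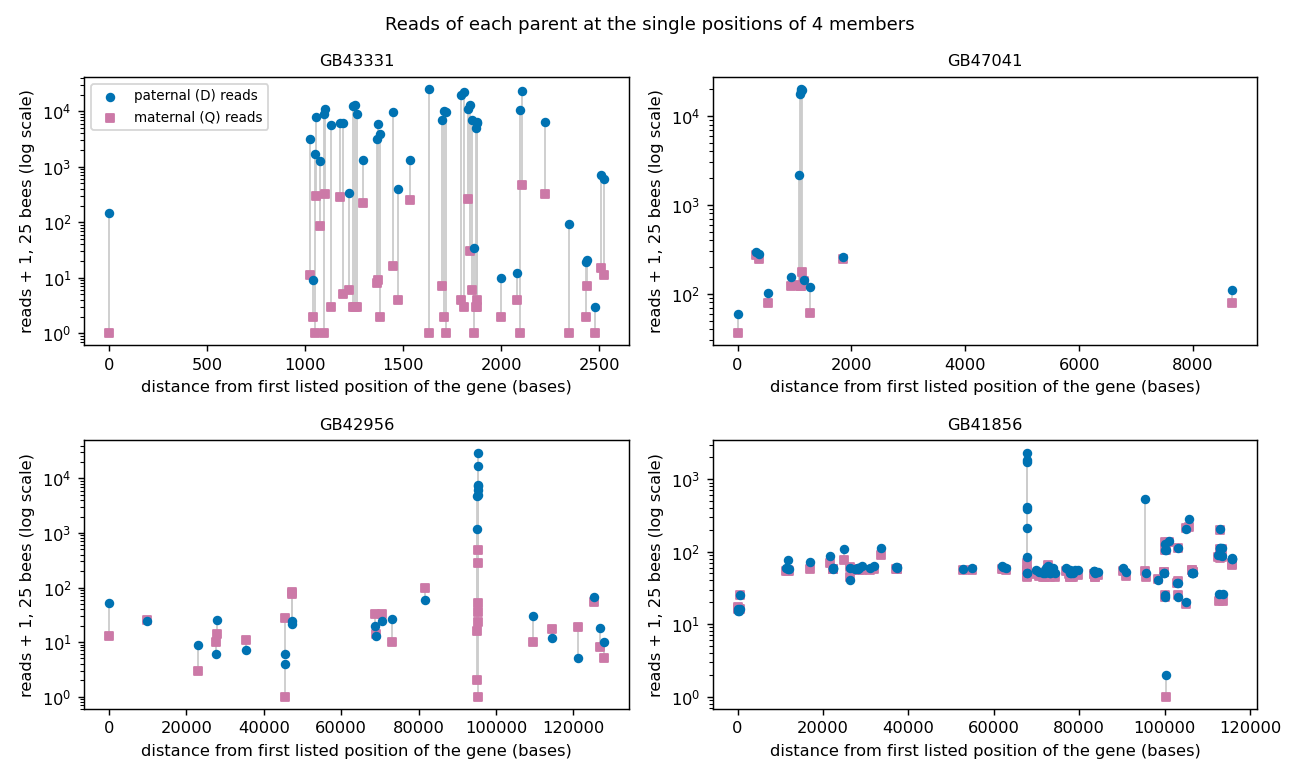
Reads of each parent at the kept positions of 4 members, added over 25 bees and plotted as reads + 1 on a log scale, by distance in bases from the first listed position. In GB43331 paternal reads exceed maternal reads along the whole gene, while in GB47041, GB42956 and GB41856 a few deep positions hold most of the excess; added together, the other positions of these genes are 72.4%, 95.3% and 55% paternal.

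Other members kept their paternal share outside the deepest positions. In GB43331 the 19 positions with 80% of the excess were 99.4% paternal and the rest 97.9%, and in GB43326 the values were 99.9% and 98.7%. GB46348, with 112 listed positions on the unplaced scaffold GroupUn122, had 96.1% at its 37 excess positions and 82.3% at the rest. When the deepest position of each cross was left out, 46 members still had at least 20 reads in every cross. Of these, 30 were at or above 60% in every cross, 40 were above 50% in every cross and 5 fell below 50% in some cross. In 14 members a single position held 50% or more of the reads of every cross. The median over a member's positions, which gives each position the same weight, was above 50% in every cross in 46 members, at least 60% in 33 and below 50% in some cross in 9.

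**Figure D4:**
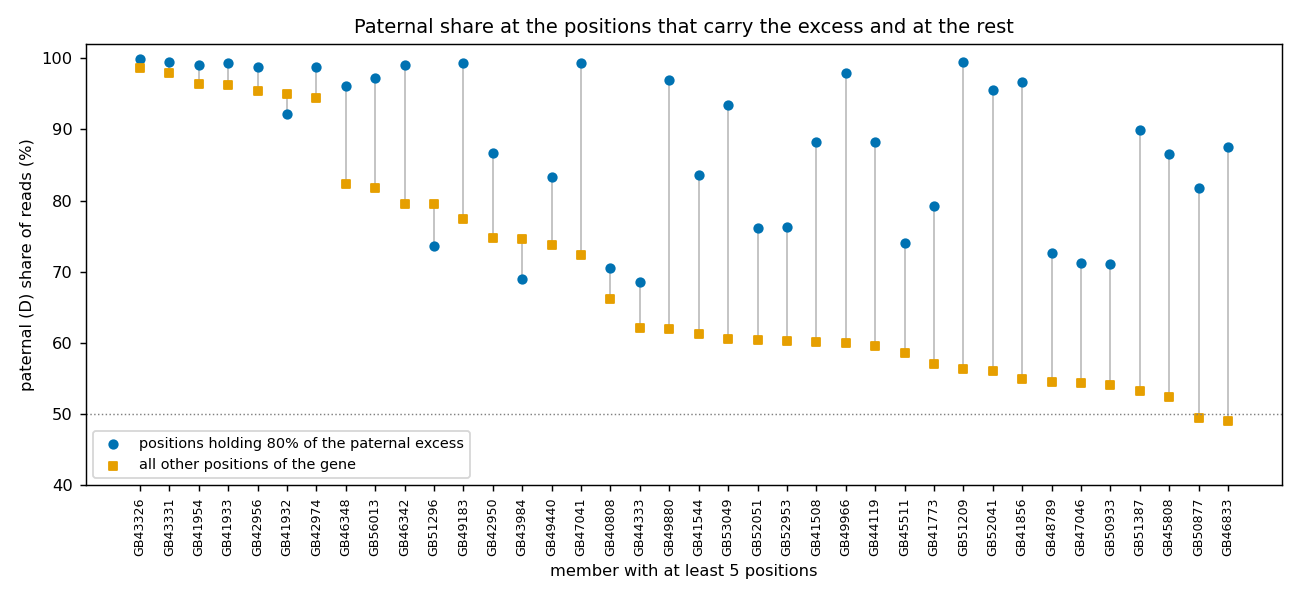
Paternal share (percent) at the positions that hold 80% of the paternal excess (circles) and at all other positions (squares) in the 38 members with at least 5 positions, ordered by the second value. The rest of the positions lies above 90% in 7 genes at the left and between 49% and 60% in the genes at the right. Among the 7 are the overlapping GB42956 and GB42974. Their median position was 61.5% and 40% paternal in the cross where it was lowest. Positions with Q at or above D always fall in the rest.

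The members lay on 45 scaffolds, and some were neighbours. Of the 55, 11 (20%) lay on unplaced scaffolds, whose names begin with GroupUn, against 64 of the other 1955 genes with enough reads (3.27%) and 3 of the 23 genes of the mirror set (13%). Neighbours were not counted among the other genes, so the counts of pairs do not show clustering. A total of 19 members shared a scaffold with another member, in 11 pairs, and 4 of these pairs lay within 50000 bases. The pairs were GB43326 with GB43331, GB41932 with GB41933, GB47046 with GB47048 (7222 bases apart on Group3.15) and GB42956 with GB42974. The last pair overlaps on Group6.28, shares 19 listed positions and rests on the same 5 deep positions (223149 to 223337, with 67976 D and 879 Q reads), so its 2 genes are not separate observations. GB47046 and GB47048 have 3 genes with listed positions between them, and both were in the lowest class. Kept positions of 7 members were listed for another gene as well, in all their kept positions for 1 member.

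The gene counts, which the rule did not use, were compared between ovary statuses. All 55 members passed the filter on low counts. With active ovaries 2 members (3.64%) were higher and 8 (14.5%) were lower than with inactive ovaries, where 11.3% of the 13157 genes tested were called higher and 10.4% lower (edgeR quasi-likelihood test with cross as a term, Benjamini-Hochberg adjusted p under 0.05). The median log2 change of the members was -0.23, against -0.28 in the 1954 other genes with enough parental reads that were tested and -0.04 in all genes. Of those 1954 genes, 124 (6.35%) were called higher and 453 (23.2%) lower. At an unadjusted p under 0.05 were 22 members (40%), against 37% of all genes. Against all genes, the share of members called higher was smaller and the share called lower was larger. Against the 1954 other genes with enough parental reads, both shares were smaller (3.64% against 6.35% higher, 14.5% against 23.2% lower). None of these differences was tested.

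The 2 members that rose with active ovaries were GB45654 and GB42950. GB45654 had 51.6, 80.3 and 143 CPM (lowest, median and highest of 12 bees) with active ovaries and 46.1, 61.9 and 80.7 CPM (of 13 bees) with inactive ovaries. The groups overlapped, with the highest values in active bees of cross 888. Its mean was 87.4 ± 28.5 CPM (SD, n = 12) in active bees and 62.3 ± 12.6 CPM (SD, n = 13) in inactive bees, a log2 change of 0.44 (SE 0.15, edgeR adjusted p = 0.0427). Within single crosses the log2 change was 0.49 in cross 875, 0.39 in cross 882, 0.99 in cross 888 and -0.15 in cross 894, so that cross 894 ran the other way. Without cross 875, 882 or 888, or without the 3 inactive bees set apart, the edgeR adjusted p was 0.0762, 0.192, 0.404 and 0.12.

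GB42950, on the unplaced scaffold GroupUn37, had 31.3, 39.6 and 74.5 CPM with active ovaries and 25.5, 33.2 and 50 CPM with inactive ovaries. Its log2 change was 0.34 (SE 0.12, edgeR adjusted p = 0.0432), with means of 45.9 ± 15.3 CPM (SD, n = 12) in active bees and 35.4 ± 6.74 CPM (SD, n = 13) in inactive bees. The change was above 0 in each of the 4 crosses. The log2 change stayed between 0.31 and 0.37 but the call was lost without cross 882 (edgeR adjusted p = 0.197), without cross 888 (0.229), without cross 894 (0.0823), without the 3 inactive bees (0.119) and with no term for cross (0.0784).

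GB41773 had the smallest p among the members that fell. It had 5.29, 11.8 and 28.5 CPM with active ovaries and 12.3, 18.6 and 66.1 CPM with inactive ovaries. The groups overlapped, and within cross 882 all 3 active bees lay below all 4 inactive bees. The mean was 13.4 ± 6.57 CPM (SD, n = 12) in active bees and 25.7 ± 16.3 CPM (SD, n = 13) in inactive bees, a log2 change of -0.88 (SE 0.21, edgeR adjusted p = 0.00486), and it was below 0 in all 4 crosses. Leaving out cross 882 ended the call (log2 change -0.68, edgeR adjusted p = 0.116), while it passed without each of the other crosses and without the 3 inactive bees.

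GB50933, which stood just inside the threshold of the rule, had 3.76, 5.69 and 6.79 CPM with active ovaries and 4.6, 8.39 and 13.6 CPM with inactive ovaries. The mean of 5.63 ± 0.951 CPM (SD, n = 12) with active ovaries stood against 8.61 ± 2.22 CPM (SD, n = 13) with inactive ovaries. The log2 change was -0.60 (SE 0.15, edgeR adjusted p = 0.00777), below 0 in all 4 crosses, and the call was lost without cross 882 (edgeR adjusted p = 0.148) or cross 888 (0.0786). The other 6 called members fell by 0.45 to 1.18 on the log2 scale. Without cross 882 no member passed in either direction (0 higher and 0 lower), where 40 of all genes tested were higher and 9 lower, against 1481 and 1362 with every cross. Without cross 888 there were 0 higher and 1 lower among the members, and 269 and 67 among all genes. Without the 3 inactive bees there were 0 higher and 4 lower among the members, and 762 and 772 among all genes. The calls over all genes thus dropped in the same settings.

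The largest change of all members was not called. GB43331 had 329, 1390 and 5143 CPM with active ovaries and 258, 2018 and 17632 CPM with inactive ovaries, with a log2 change of -1.59 (SE 0.70, edgeR adjusted p = 0.102). The inactive bees spread over a wide range, and 4 of them (replicates 4, 5, 10 and 13) were above every active bee. Its paternal share in those 4 bees was 98.0%, 98.3%, 99.2% and 99.4%, within the range of the others or just below it.

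**Figure D5:**
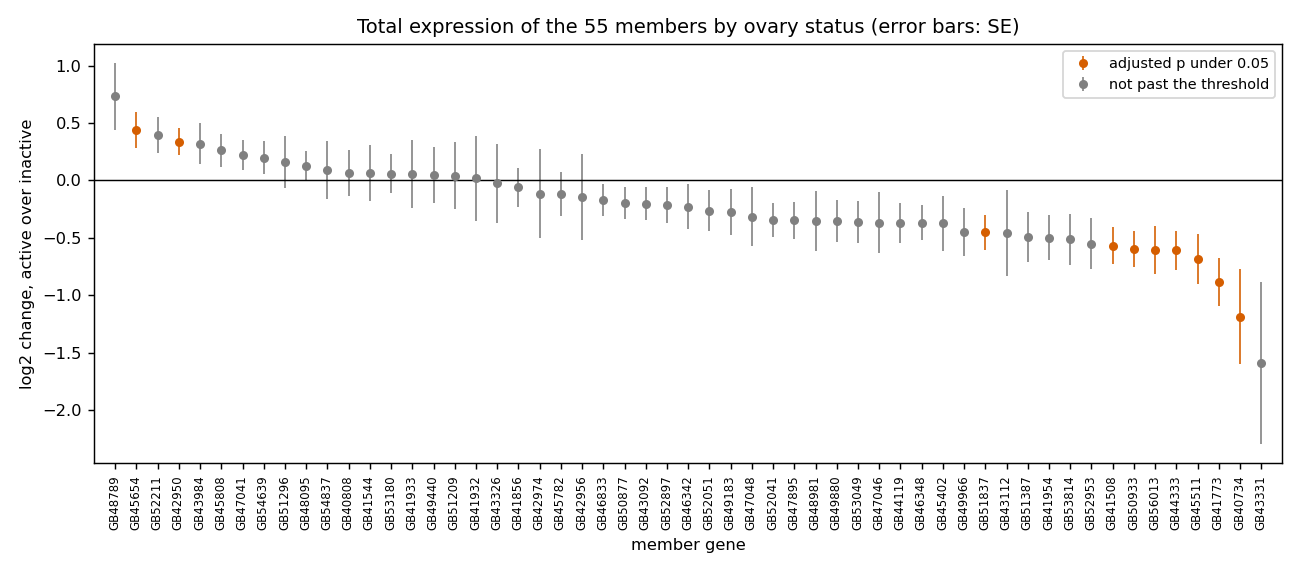
Log2 change of total expression with active over inactive ovaries for the 55 members, with the standard error as a bar, ordered by size. The 10 called members are coloured, 2 above 0 and 8 below, and most members lie between -0.5 and 0.3.

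The paternal share itself could be compared between ovary statuses, because the rule had added both. Of 1803 genes with enough reads in both statuses of every cross, 0 (0%) passed the adjusted threshold, 47 members among them (edgeR quasi-likelihood test of the parent-by-status term). At an unadjusted p under 0.05 were 8 of the 47 members (17.0%), against 4.33% of all genes tested and 69 of 1733 other genes (3.98%). Of the mirror set 4 of 22 (18.2%) reached that level. The 8 members include GB42956 and GB42974, which share 19 listed positions and are not separate observations. Positions listed in a single allele table also enter the comparison from only that status. They held over 10% of the reads in 11 members, GB42956 and GB42974 among them. limma, run on log2 ratios as a second tool, also called 0 members. Whether these shares differ between the sets was not tested.

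The smallest p among the members belonged to the overlapping pair GB42956 and GB42974. GB42956 had 91.2%, 96.2% and 97.9% paternal reads (lowest, median and highest of 12 bees) with active ovaries and 96.2%, 99.1% and 99.8% (of 13 bees) with inactive ovaries. The mean was lower with active ovaries in every cross, for instance 92.7% ± 1.96 against 97.9% ± 1.70 in cross 888 (SD, n = 3 each). The difference of the log2 ratio of D to Q was -1.92 (active minus inactive, SE 0.42, edgeR adjusted p = 0.214) and it did not pass. GB42974 had -1.75 (SE 0.41, edgeR adjusted p = 0.214), largely from the same reads. Positions listed in a single allele table held 61.8% of the reads of GB42956, and with positions in both tables only the difference was -0.91 (edgeR adjusted p = 0.999). At GB42950 the mean share was 89.8% ± 7.05 (SD, n = 12) in active bees and 73.1% ± 12.4 (SD, n = 11) in inactive bees, with an edgeR adjusted p of 0.348.

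Total expression was also compared between crosses. Of the 13157 genes tested, 6.3% were called for a difference among the 4 crosses, and 4 of the 55 members (7.27%) were among them, with 12 members at an unadjusted p under 0.05 against 23.3% of all genes. GB47048 had the smallest p of the members, with 8.99 ± 5.76 CPM in cross 875, 29.5 ± 7.86 CPM in cross 882, 11.8 ± 9.52 CPM in cross 888 and 24.4 ± 5.82 CPM in cross 894 (SD, n = 7 in cross 882 and 6 in the others, edgeR adjusted p = 0.0087). GB41773 had 11.2 ± 4.56, 23.1 ± 14.5, 13.3 ± 3.61 and 30.9 ± 18.2 CPM in the same order of crosses (SD, edgeR adjusted p = 0.0113). In the cross with the lowest level, the paternal share was the lowest of the 4 crosses in GB41773 (61.3%, cross 875) and the second highest in GB47048 (82.5%, cross 875). It was the highest in the remaining called members, GB45808 (8.20 CPM and 87.4% in cross 875) and GB42950 (31.2 CPM and 88.4% in cross 894). A relation between level and paternal share across crosses was not tested. The count of members was 2 without cross 875, 1 without cross 882, 1 without cross 894 and 8 without the 3 inactive bees, where 259, 267, 262 and 1440 of all genes were called, against 829 with every bee.

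Across bees, the paternal share had no relation to total expression that passed the threshold. Both measures were taken as deviations from the mean of the cross, with expression as log2(CPM + 1). Ovary status was not taken out, so a difference between statuses can enter the relation. In all, 1737 genes had at least 10 reads in at least 5 bees of every cross. None (0, 0%) passed after adjustment, with either Pearson's or Spearman's coefficient, and 49 of these genes were members (two-sided permutation test, 100000 permutations within crosses). At an unadjusted p under 0.05 were 7 of the 49 members (14.3%), against 9.27% of all genes, a difference that was not tested. The median r of the members was -0.0033 and 24 of the 49 were above 0, so neither direction prevailed.

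The smallest p of Pearson's r among the members was that of GB53814, on scaffold Group3.12, with 5965 reads at 3 positions. Its paternal share was 87.2%, 95.2% and 100% (lowest, median and highest) with active ovaries and 92.4%, 98.1% and 100% with inactive ovaries. Over 25 bees r was 0.69 and rho 0.72 (permutation p = 0.00049 for r, adjusted p = 0.17), and r was 0.62 without the 2 bees farthest from the median expression. GB41932 had r 0.56 and rho 0.48 over 25 bees (permutation p = 0.00233 for r, adjusted p = 0.233), with r 0.45 without the 2 farthest bees. Without taking deviations from the cross mean, r was 0.48 for GB53814 (adjusted p = 0.316) and 0.20 for GB41932 (adjusted p = 0.78). By Spearman's coefficient the smallest p was that of GB42950, with rho 0.75 and r 0.58 over 23 bees (permutation p = 0.00023 for rho, adjusted p = 0.109). None of these relations passed the adjustment over 1737 genes. The mean level of the members ran from 1.86 CPM (GB51296) to 6744 CPM (GB43112), with a median of 19.2 CPM. CPM is not divided by gene length, which the files do not give, so these levels are not compared between genes.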

How the data were processed

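The authors deposited 1 table of raw read counts per gene and 2 allele tables, for active and for inactive ovaries, of D and Q read counts at single positions per bee. Per the submitters' processing notes, TopHat and edgeR were used (versions not named). How reads were assigned to D or Q, the build and annotation, and the counting tool with its strand setting were not given in the sources used here, and positions are those of the files. Every column was matched to a bee by its title (0 left unused).

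D and Q counts of both tables were joined by gene and position, and positions without a gene were dropped. Positions with equal sums of D and Q over the bees of a cross were dropped there. The members and all lists were chosen with earlier results of these data known. CPM used TMM-scaled totals. Ovary status and cross were tested with edgeR 4.0.16 in R 4.3.3 (filterByExpr, robust quasi-likelihood), the paternal share by status in a fit with a term for each bee and a parental ratio for each cross. SE was taken as |log2 change| over the root of the F statistic. DESeq2 1.42.0 and limma 3.58.1 (pseudocounts 0.5 and 2) were alternatives. Each fit was tested on simulated counts. Named genes were those with the most reads, the highest lowest-cross share, the most positions, the highest and lowest level, and the nearest to the threshold on each side. Also named were up to 2 called members with the smallest p in each direction for ovary status. For each other test the 2 members with the smallest p were named, by Pearson's r for the relation to expression. Other genes, such as GB41954, fall outside this rule, and some are said to be chosen after their values were seen. Nothing says that the bees of a cross came from more than a single colony, so p-values measure the spread between these bees. Genes that overlap, or lie on opposite strands, may share reads.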

Additional observations from a re-analysis of the deposited data

How the results depend on the processing

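The number of members followed the threshold: 99 genes met the rule at a paternal share of at least 0.55, 36 at 0.65 and 26 at 0.7, and 25 remained without each member's deepest position in a cross, a setting chosen after the data were seen that left 31 members with enough reads. The other 9 settings of the rule gave 37 to 66 genes, among them 47 in active bees alone and 48 in inactive bees alone, with 37 and 36 of these being members.

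For ovary status, 2 members were higher and 8 lower. DESeq2 gave 4 higher (1816 of all genes, against 1481). Without cross 882 there were 0 higher and 0 lower (40 and 9 of all genes), without cross 888 0 higher and 1 lower (269 and 67 of all genes), and without cross 875 16 lower (2150 of all genes, against 1362 with every cross). Without inactive replicates 6, 8 and 9, which leaves cross 888 with 1 inactive bee, there were 0 higher and 4 lower (762 and 772 of all genes). Within single crosses, added after the data were seen, cross 875 had 0 higher and 0 lower (0 and 0 of all genes). Cross 882 had 0 and 1 (663 and 238 of all genes). Cross 888 had 1 and 11 (1216 and 1342 of all genes), and cross 894 had 0 and 0 (0 and 0 of all genes). GB45654 changed direction within cross 894 (log2 change -0.15, edgeR adjusted p = 0.999). For the difference between crosses (4 members), the DESeq2 likelihood ratio test gave 8 (1815 of all genes, against 829), and leaving out cross 875, 882 or 894, or the 3 inactive bees, gave 2, 1, 1 and 8, all but the first setting chosen after the data were seen. In all, 30 settings of the counts left them within 1.5 times the main count and 24 did not, and the cause was not tested. The 30 include the settings for paternal share by status and for the relation with expression, where both counts were 0. No setting called a member for a difference in paternal share between statuses or for a relation with expression.

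No paired analysis was possible because the labels tie no active bee to an inactive bee: the replicate numbers follow the deposited order, and the codes in the titles are not shared between the statuses of a cross. Depth limits the members with few reads: the fewest were 510 over all bees, and single bees then rest on few reads.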
